A study of Mus musculus with 16 samples.

Results

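Paclitaxel (PTX) was compared with vehicle in mice carrying Nav1.8-cre and floxed LTβR, called CKO here. The comparison took the 4 libraries titled as PTX-treated Nav1.8/LTbR CKO and the 4 titled as Nav1.8/LTbR CKO without PTX, whose treatment label is water, so 8 of the 16 libraries of the series. PTX was injected into the peritoneum 3 times at 6 mg/kg, 2 days apart. Counting from the last injection, male mice of 8 to 16 weeks received the fluorescent tracer WGA-488 in a paw at 16 days, and L3 to L5 dorsal root ganglia (DRG) were taken at 18 days. Tracer-positive cells were sorted, and their poly(A) RNA was sequenced. The treatment text attached to the vehicle libraries also describes PTX, so vehicle rests on the titles and the treatment label. The design text gives 3 per group and the labels 4. The remaining groups, PTX and vehicle in LTβR fl/fl mice, carry the floxed allele without the Cre and entered the same fit. Cre driven by the Nav1.8 gene is active mainly in nociceptors, so other DRG cells keep the floxed allele. The labels do not say whether replicates are separate animals, so p-values measure only the spread between these libraries. PTX and vehicle libraries carry different title dates, with replicates 1 and 2 on an earlier and replicates 3 and 4 on a later date within each group, and treatment and title date cannot be told apart.

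Paclitaxel is a chemotherapy drug that binds β-tubulin and stabilises microtubules. Its dose-limiting side effect is a sensory neuropathy of long axons. Nav1.8, encoded by Scn10a, is a sodium channel of nociceptors, the DRG neurons that signal pain. LTβR is a receptor of the tumour necrosis factor family that binds lymphotoxin and LIGHT and activates classical and alternative NF-κB signalling. A DRG also holds satellite glia around the cell bodies, Schwann cells around the axons, macrophages, fibroblasts and vessels.

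The 8 libraries held 7906504 to 11606583 counts in genes and 12136 to 14766 genes with a count. The 10 most abundant genes took 5.59% to 14.7% of the counts in the PTX libraries and up to 23.2% in the vehicle libraries. Although the samples are described as sorted neurons, the 21 tested neutrophil markers summed to 7.81% to 19.6% of the raw counts in genes in the vehicle libraries. In the PTX libraries the same sum was 0.0325%, 0.101%, 12.3% and 6.99% in replicates 1 to 4. The 20 pan-sensory neuron markers summed to 0.142% to 0.392% in vehicle and to 1.97%, 2.46%, 0.936% and 0.927% after PTX. The neuron marker sums of the groups did not overlap. The PTX libraries of the earlier title date held the most neuron RNA and almost no neutrophil RNA. In bulk samples, fewer cells of a type and less RNA per cell cannot be told apart, and the part of cell makeup in the differences below was not tested.

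**Figure D1:**
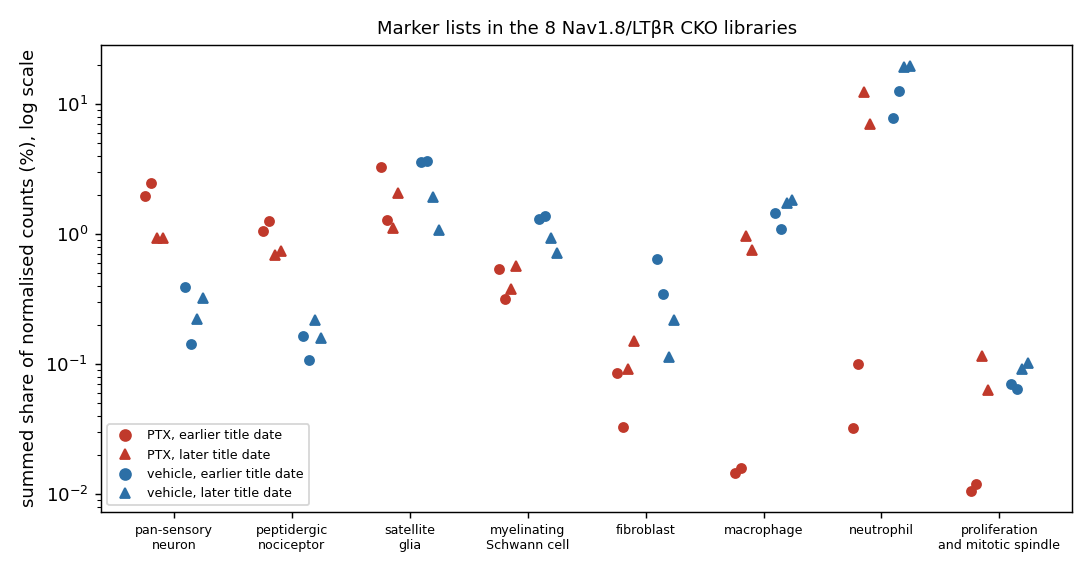
Summed share of the raw counts in genes (%, log scale) of 8 marker lists in each of the 4 PTX (red) and 4 vehicle (blue) CKO libraries. The axis label reads normalised, but the shares are of unscaled counts. Circles are the earlier and triangles the later title date within each group. The 4 PTX libraries lie above all 4 vehicle libraries for neuron markers and below them for Schwann cell markers, while neutrophil markers are low only in the 2 PTX libraries of the earlier date (0.0325% and 0.101%).

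The targeted gene and the Cre driver gene were examined first. Ltbr was at 23.3, 5.88, 19.5 and 28.4 CPM (normalised counts scaled to a common library size) in the PTX libraries, replicates 1 to 4, and at 99.0, 54.3, 33.1 and 32.3 CPM in the vehicle libraries. Every PTX library was below every vehicle library, with the lowest value in PTX replicate 2. The log2 difference was -1.50 ± 0.51 (SE, edgeR quasi-likelihood test, adjusted p = 0.120). An exact permutation test of log2(CPM + 1), two-sided, gave p = 0.0286, the smallest that 4 against 4 libraries allow. In fl/fl the PTX difference of Ltbr was -2.15 ± 0.52 (edgeR, adjusted p = 0.0273), so lower Ltbr after PTX was not particular to CKO. Vehicle fl/fl libraries, which lack the Cre, held 42.4 to 51.4 CPM of Ltbr, so the deletion is not visible as a lower count over the whole gene. Counts over the whole gene do not separate deleted from kept exons, and cells without the Cre keep the intact gene. Scn10a was at 831, 1067, 284 and 359 CPM after PTX and at 51.3, 53.1, 106 and 131 CPM in vehicle. The groups did not overlap, and within each group the libraries of one title date were near each other. The log2 difference was 2.90 ± 0.69 (edgeR, adjusted p = 0.0346; exact permutation p = 0.0286).

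Many genes of sensory neurons were higher after PTX, and some genes of myelinating Schwann cells and of the extracellular matrix were lower. Of 14200 genes tested, 315 passed the test upward (edgeR, Benjamini-Hochberg adjusted p under 0.05; 2.22% of the genes tested) and 51 downward (0.359%), so 86.1% of the 366 calls were higher. That split did not hold with some other fits: title date terms gave 855 higher and 943 lower genes, limma-voom with quality weights 1259 and 1436, and DESeq2 888 and 453. In others most calls were again higher: 82.4% with RLE, 84.5% with upper-quartile scaling, 85.7% with the replicate block and 94.3% in the 8 CKO libraries alone. The median log2 difference was 2.12 among the 315 and -2.18 among the 51, against 0.02 over all genes. In 354 of the 366 genes every PTX library lay on one side of every vehicle library, against 13.5% of all tested genes (8.91% higher and 4.54% lower). The 366 were chosen by the test on these same libraries, so this contrast describes them and is no support. These counts rest on the PTX libraries of the earlier date, which were left out for CKO and fl/fl together. Without them 0 genes passed in edgeR, with 731 higher and 480 lower at an unadjusted p under 0.05. All 366 kept their direction there, which groups without overlap largely fix in advance. Their median size was 1.72 on the log2 scale in place of 2.12. Leaving out single libraries lowered the 315 to 62 (PTX replicate 1), 27 (PTX replicate 2), 187 (vehicle replicate 1), 32 (vehicle replicate 2) and 84 (vehicle replicate 3), and the 51 to 6, 3, 22, 4 and 13.

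**Figure D2:**
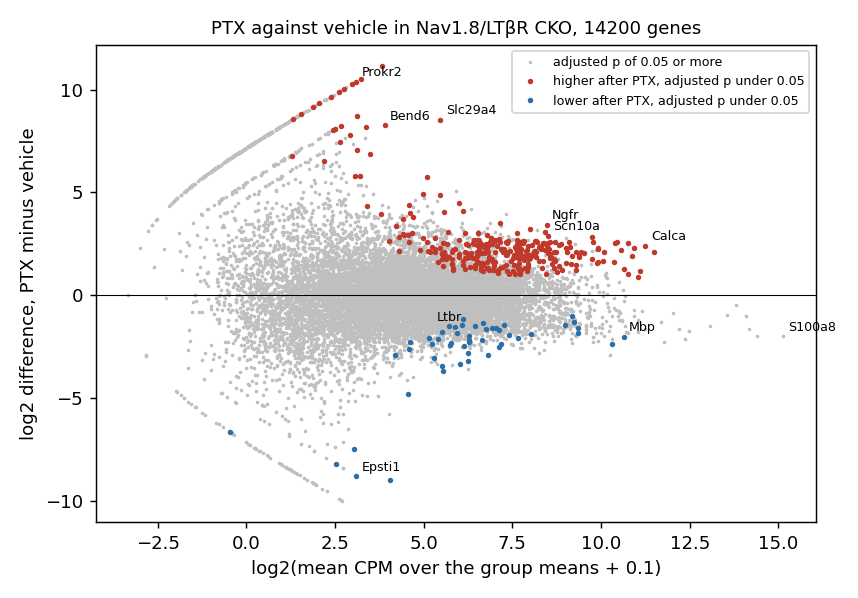
Log2 difference (PTX minus vehicle) against the log2 mean CPM (plus 0.1) of 14200 genes in CKO, 4 libraries per group; coloured points passed the test. The 315 red points include abundant neuron genes such as Calca (2.40) and Ngfr (3.44), and the 51 blue points include Mbp (-2.02) and Col3a1 (-2.92).

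The shares over all tested genes, 2.22% called higher and 0.359% called lower, are the reference for each list count below. Among pan-sensory neuron markers, 10 of 20 rose and none fell, with a median log2 difference of 2.30. Prph, the neuronal intermediate filament peripherin, was at 2376, 3741, 1653 and 1471 CPM after PTX and at 320, 158, 418 and 708 CPM in vehicle (log2 difference 2.53 ± 0.52, adjusted p = 0.0204). Uchl1, a neuronal ubiquitin hydrolase, was at 1922, 2665, 996 and 892 CPM against 418, 213, 309 and 375 CPM (2.30 ± 0.46, adjusted p = 0.0184). The PTX libraries of the earlier date were the highest for both genes, and the lowest PTX library was above the highest vehicle library. Slc17a6, the vesicular glutamate transporter of sensory neurons, rose from 24.6, 34.2, 41.7 and 80.7 CPM to 230, 353, 219 and 295 CPM (2.60 ± 0.52, adjusted p = 0.0184), with no separation by date in the PTX libraries. Elavl3 (2.57 ± 0.52) and Stmn2 (2.26 ± 0.46), an RNA-binding protein and a tubulin-binding protein of neurons, also rose. Gap43, a growth cone protein, had a log2 difference of 2.21 ± 0.60 with an adjusted p of 0.0568.

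Peptidergic nociceptor markers had the highest median of all lists, 2.85, and 5 of 17 rose. Calca, which encodes the neuropeptide CGRP, was at 4586, 5773, 2969 and 3061 CPM after PTX and at 665, 298, 1363 and 786 CPM in vehicle. All PTX libraries were above all vehicle libraries (log2 difference 2.40 ± 0.50, adjusted p = 0.0204). Adcyap1, the precursor of the neuropeptide PACAP, was at 360, 451, 655 and 413 CPM against 84.4, 88.6, 172 and 95.2 CPM (2.10 ± 0.41, adjusted p = 0.0177), and here the highest library in both groups was replicate 3. Bdnf, a neurotrophin made by nociceptors, was at 148, 226, 72.4 and 79.0 CPM against 10.3, 8.19, 0.128 and 11.7 CPM (4.11 ± 0.85, adjusted p = 0.0204). Prokr2, a prokineticin receptor of nociceptors, had 649 counts over the PTX libraries (24.4, 16.8, 3.40 and 22.8 CPM) and 0 over the vehicle libraries. Against a floor of 3 counts over the vehicle group it was at least 197-fold higher (edgeR, adjusted p = 0.00593). Scn10a, described above, was the fifth. Tac1, the substance P precursor (2.17 ± 0.57, adjusted p = 0.0519), did not pass the test.

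**Figure D3:**
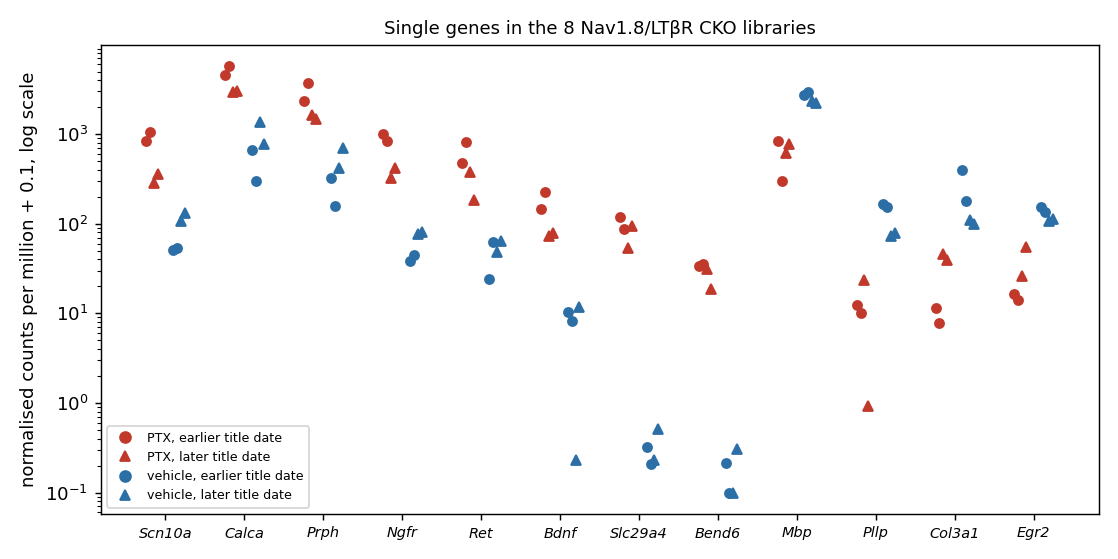
Normalised CPM plus 0.1 (log scale) of 12 genes in the 4 PTX (red) and 4 vehicle (blue) CKO libraries, with circles for the earlier and triangles for the later title date in each group. For each gene the groups do not overlap; Slc29a4 lies at 53.1 to 118 CPM after PTX and at most 0.417 CPM in vehicle.

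Other neuron classes gave at most 1 call per list, against 2.22% of all tested genes called higher and 0.359% lower. At those shares, lists of 10 to 21 genes would hold hardly any call. Among 16 non-peptidergic nociceptor markers the median log2 difference was 1.91 and 1 gene rose. That gene was Ret, the receptor of the GDNF family, at 478, 811, 383 and 185 CPM after PTX and 23.8, 62.4, 48.3 and 64.1 CPM in vehicle (3.23 ± 0.53, adjusted p = 0.00911). The defining non-peptidergic receptors did not pass. Mrgprd, a receptor of these neurons, was at 0.561, 4.09, 0.767 and 71.7 CPM in vehicle and 64.9 to 684 CPM after PTX (3.95 ± 1.50, adjusted p = 0.165), and the ATP receptor gene P2rx3 had a log2 difference of 3.08 ± 1.18 (adjusted p = 0.167). Itch neuron markers had 1 call of 12 (median 1.12), the serotonin receptor Htr1a, which was at 15.7, 21.7, 15.9 and 0 CPM after PTX and had no count in vehicle. It was at least 165-fold higher over the group, although PTX replicate 4 had no count either. Markers of C-low-threshold mechanoreceptors and cold neurons had 0 calls of 10 in edgeR (median 1.83); 2 were higher without overlap, as were 8.91% of all tested genes, among them Fam38b, the file's name for the mechanosensitive channel Piezo2, with 1.72 ± 0.54 (adjusted p = 0.0929). The myelinated mechanoreceptor and proprioceptor list had a median of 0.18 over 21 genes. Its 1 call was downward: Kcna1, a potassium channel of myelinated axons and their neurons, at 106, 89.4, 110 and 141 CPM after PTX and 621, 587, 230 and 199 CPM in vehicle (-1.88 ± 0.35, adjusted p = 0.0144).

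Ion channel lists had positive medians. The sodium channel list held 1 gene called higher and the potassium channel list 3, beside 2.22% of all tested genes. The median log2 difference was 1.76 over 14 sodium channel genes, 1.96 over 43 potassium channel genes and 1.56 over 40 calcium, HCN, TRP, P2X and ASIC channel genes. Besides Scn10a and Kcna1, the called genes of these lists were Kcnab2, Kcng2 and Kcnma1; Trpc7, a TRP channel gene outside the lists, also rose and is among the genes with 0 vehicle counts. Kcnab2, an auxiliary potassium channel subunit, was at 314, 386, 273 and 228 CPM after PTX and 79.2, 45.3, 77.2 and 106 CPM in vehicle (1.97 ± 0.36, adjusted p = 0.0139). Kcng2, a modifier subunit, had 448 counts after PTX and 2 in vehicle, a ratio of 204 with a 95% counting interval of 56.2 to 1692. Kcnma1, the BK channel, had 609 counts after PTX and 2 in vehicle, a ratio of 278 with a 95% counting interval of 76.6 to 2299. In the vehicle fl/fl libraries the mean was 4.31 CPM for Kcnma1 and 0.879 CPM for Kcng2. None of the 40 genes of the calcium, HCN, TRP, P2X and ASIC list passed in edgeR. Trpv1, the capsaicin receptor, was at 249, 332, 267 and 253 CPM after PTX and 104, 123, 101 and 73.7 CPM in vehicle (1.46 ± 0.55, adjusted p = 0.158). Its groups did not overlap, and the libraries of each group were close together.

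Tubulins, the family that paclitaxel binds, were tested in a list with microtubule-associated genes. Among 45 tubulin and microtubule-associated genes 17 rose and none fell, with a median of 1.47. The list summed to 3.00%, 3.57%, 1.67% and 1.73% of the raw counts in genes after PTX and 0.628% to 0.886% in vehicle. Tubb5, a broadly expressed β-tubulin, was at 2452, 3077, 2086 and 1511 CPM after PTX and 1029, 820, 983 and 933 CPM in vehicle (1.28 ± 0.25, adjusted p = 0.0177). Tubb3, the neuronal β-tubulin, was at 3133, 3704, 1490 and 1226 CPM against 437, 177, 410 and 576 CPM (2.58 ± 0.54, adjusted p = 0.0211). Both had no overlap between the groups. Mtap1a (2.03 ± 0.34, adjusted p = 0.00911) and Mtap1b (2.10 ± 0.39, adjusted p = 0.0139), which encode microtubule-associated proteins of axons and dendrites, rose as well. Tubb2b rose by 2.48 ± 0.57, with its lowest PTX library (60.4 CPM) just below its highest vehicle library (61.3 CPM).

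Transport and release genes followed. Among 32 kinesin, dynein and dynactin genes 3 rose (median 0.94). Dctn1, the large subunit of the dynein adaptor dynactin, was at 432, 571, 336 and 305 CPM after PTX and 103, 125, 86.8 and 122 CPM in vehicle (1.91 ± 0.30, adjusted p = 0.00618). Kif5a, a neuronal kinesin heavy chain (2.54 ± 0.52), and Dync1li1, a dynein light intermediate chain (1.39 ± 0.35), were the others. Of 36 synaptic vesicle and SNARE genes 10 rose, with a median of 1.88. Vamp2, the vesicle SNARE synaptobrevin, had tight groups at 528, 632, 411 and 427 CPM against 140, 164, 162 and 171 CPM (1.65 ± 0.25, adjusted p = 0.00593). Syt4, a synaptotagmin (3.08 ± 0.59), and Syn1, a vesicle phosphoprotein (2.54 ± 0.48), also rose. Of 23 neuropeptide precursors 6 rose (median 1.96), among them Nmb, the neuromedin B precursor (2.67 ± 0.56), and the granins Scg2 (2.37 ± 0.49) and Scg5 (1.89 ± 0.41).

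Among 18 neurotrophin and GDNF family genes 3 rose: Ngfr, Bdnf and Ret (median of the list 0.67). Ngfr, the p75 neurotrophin receptor, was at 1010, 846, 320 and 418 CPM after PTX and 38.6, 44.2, 76.1 and 81.1 CPM in vehicle. The lowest PTX library was above the highest vehicle library (3.44 ± 0.47, adjusted p = 0.00292). Of 30 inhibitory receptor signalling genes 2 rose, the G protein subunits Gnao1 (2.63 ± 0.58) and Gng3 (2.11 ± 0.49), and the median was 2.08. The 24 sensory neuron transcription factors held 3 rises (median 1.40), Ebf1 (2.17 ± 0.48), Klf7 (1.03 ± 0.24) and Sox11 (5.81 ± 1.42, from at most 1.15 CPM in vehicle).

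The axon injury and regeneration list had a median of 0.23, and 5 of 28 genes rose. They were Sox11, Klf7, Tubb2b, Tubb3 and Hspb1, a small heat shock protein at 96.0, 129, 48.9 and 54.9 CPM after PTX and 18.6, 24.8, 18.5 and 29.1 CPM in vehicle (1.85 ± 0.35, adjusted p = 0.0158). Atf3, the transcription factor most used as an injury mark in DRG neurons, was at 17.4, 73.2, 95.5 and 184 CPM after PTX and 236, 155, 232 and 181 CPM in vehicle (-1.12 ± 0.53, adjusted p = 0.249). PTX replicates 1 to 3 were below all vehicle libraries, and replicate 4 was among them. In the list of SARM1, NMNAT and DLK axon degeneration genes 3 of 22 rose (median 0.18): Map3k12, which encodes the injury kinase DLK (2.14 ± 0.40, adjusted p = 0.0144), Mapk10, the neuronal JNK3 (2.79 ± 0.63), and Mapk8ip3, a JNK scaffold (1.31 ± 0.33). Of 30 heat shock and chaperone genes 5 rose (median 0.60). Hspb8, a small heat shock protein, had the biggest of these differences, from 65.5, 51.2, 129 and 158 CPM to 605, 779, 376 and 374 CPM (2.40 ± 0.44, adjusted p = 0.0139). Hsp90aa1 (1.39 ± 0.32), Hsp90ab1 (1.16 ± 0.28) and Hspa8 (1.08 ± 0.27), chaperones of most cells, rose less.

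The genes with the widest differences were nearly silent in vehicle. Slc29a4, a monoamine transporter, was at 118, 88.2, 53.1 and 93.9 CPM after PTX and 0.224, 0.111, 0.128 and 0.417 CPM in vehicle, 3435 counts against 8. Its log2 difference was 8.55 ± 0.94 (edgeR, adjusted p = 0.000575). Bend6, a BEN-domain protein linked to Notch repression, was at 33.9, 35.0, 31.2 and 18.6 CPM after PTX and at 0.112, 0, 0 and 0.208 CPM in vehicle (1172 counts against 3, ratio 356, 95% counting interval 122 to 1730, adjusted p = 0.000575). Both genes were high in all 4 PTX libraries at either date. With 0 counts in vehicle, Epn3, an epsin of endocytosis, was at least 310-fold higher, at 15.1, 16.6, 4.12 and 77.7 CPM after PTX (adjusted p = 0.0391). Lrguk, Trpc7, Ptpn5, Pcdha9, Spink2, Celf3 and Immp2l also had 0 counts in vehicle and were at least 64.5-fold to 201-fold higher. Trpc7 is a cation channel and Ptpn5 a brain-enriched tyrosine phosphatase. Pcdha9 shares exons with the other protocadherin alpha genes, so its count is uncertain. Odz1 (a teneurin), Lrrc24 and Tmem74 had 1, 1 and 2 vehicle counts and ratios of 586, 457 and 369, with lower 95% counting bounds of 105, 81.6 and 102.

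Schwann cell genes were lower. Among 19 tested myelinating Schwann cell markers 7 fell, none rose, and all 19 had a negative difference (median -2.09). Mbp, myelin basic protein, was at 831, 303, 620 and 774 CPM after PTX and 2715, 2942, 2335 and 2251 CPM in vehicle (-2.02 ± 0.32, adjusted p = 0.00714). The PTX libraries of the later date were as low as those of the earlier one. Prx, a myelin scaffold protein, fell by 2.09 ± 0.39, the tight junction gene Cldn19 by 3.44 ± 0.76 and the myelin proteolipid Pllp by 3.34 ± 0.67. Egr2, the transcription factor that drives myelination, was at 16.3, 14.1, 26.0 and 55.1 CPM against 154, 134, 108 and 114 CPM (-2.19 ± 0.52, adjusted p = 0.0346). A330049M08Rik fell as well (-2.82). The summed share of the list was 0.318% to 0.566% after PTX and 0.710% to 1.38% in vehicle. Satellite glia markers moved less, with 1 of 22 genes lower and a median of -0.50. The called gene was Ednrb, the endothelin B receptor, at 365, 178, 319 and 280 CPM against 1155, 1420, 1089 and 430 CPM (-1.84 ± 0.41, adjusted p = 0.0264).

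Some matrix and fibroblast genes fell. Of 17 fibroblast markers 4 fell (median -1.94), and of 39 collagen and proteoglycan genes 6 fell (median -1.80). The lists share 4 of the called genes. The summed share of the collagen and proteoglycan list overlapped between the groups, at 0.0389% to 0.173% after PTX and 0.121% to 0.433% in vehicle. Col3a1, a fibrillar collagen, was at 11.4, 7.69, 46.3 and 39.0 CPM after PTX and 396, 181, 111 and 100 CPM in vehicle, so the gap was wider on the earlier dates (-2.92 ± 0.64, adjusted p = 0.0262). Ogn, the proteoglycan osteoglycin, was at 40.8, 16.2, 46.6 and 41.3 CPM against 216, 182, 142 and 116 CPM (-2.18 ± 0.42, adjusted p = 0.0162). Col18a1 had tight groups, at 9.35, 5.69, 7.94 and 9.78 CPM against 48.4, 38.3, 39.9 and 34.8 CPM (-2.30 ± 0.48, adjusted p = 0.0204). Col1a2 (-1.94 ± 0.48) and Lum (-2.43 ± 0.54) fell too, although Lum overlapped between the groups through vehicle replicate 3 (19.8 CPM) and PTX replicate 1 (21.4 CPM).

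The macrophage and neutrophil lists had negative medians without a call. None of 23 macrophage and none of 21 neutrophil markers passed in edgeR, with medians of -2.12 and -1.66. With 0.359% of all tested genes called lower, lists of this size would rarely hold a call. All 23 macrophage markers had a negative difference and 9 were lower without overlap, as were 4.54% of all tested genes. S100a8, an abundant neutrophil protein gene, was at 102 and 375 CPM in PTX replicates 1 and 2, at 37090 and 19710 CPM in PTX replicates 3 and 4, and at 20710, 45300, 81810 and 82150 CPM in vehicle. Lyz2, lysozyme of myeloid cells, was at 24.1, 56.7, 4691 and 3235 CPM after PTX and 5163, 5572, 11640 and 12210 CPM in vehicle (-2.11 ± 1.19, adjusted p = 0.353). The low values thus lay in the PTX libraries of the earlier date, and the later ones were near the vehicle range. Proliferation genes did the same: Mki67, a marker of dividing cells, was at 0.394, 0.474, 111 and 120 CPM after PTX and 26.1, 57.2, 96.1 and 159 CPM in vehicle. None of the 30 proliferation and mitotic spindle genes passed (median -0.98). Without the PTX libraries of the earlier date in both genotypes the medians were -1.16 for macrophage, -0.68 for neutrophil and -0.35 for proliferation genes. They were -1.64 for Schwann cell and 1.67 for pan-sensory neuron markers. Endothelial markers (16 tested, median -2.04) and pericyte and smooth muscle markers (14 tested, median -1.56) had no call, and neither had the few tested lymphocyte (7, median -2.24), red cell (2) and skeletal muscle (3) markers.

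None of 31 LTβR and NF-κB genes passed in edgeR; their median was -1.16 and 4 were lower without overlap, as were 4.54% of all tested genes. Ltb, which encodes lymphotoxin β, a ligand of the receptor, was at 0.0985, 0.474, 25.1 and 41.2 CPM after PTX and 15.8, 10.5, 55.2 and 33.2 CPM in vehicle. Tnfsf14, the ligand LIGHT, had 0 counts in PTX replicates 1 and 2, 14.9 and 35.7 CPM in replicates 3 and 4, and 15.8 to 36.7 CPM in vehicle. Both ligands were near absent in PTX replicates 1 and 2, where neutrophil and macrophage markers were also low. A link between these levels was not tested. Of the alternative pathway's transcription factors, Nfkb2 was at 5.22, 2.66, 125 and 104 CPM against 117 to 196 CPM (-1.37 ± 1.02, adjusted p = 0.492) and Relb at 6.79, 6.07, 32.2 and 18.3 CPM against 16.4 to 77.1 CPM (-1.78 ± 0.65, adjusted p = 0.143). Nfkbia, the NF-κB inhibitor, had a log2 difference of -1.50 ± 0.90 (adjusted p = 0.381). Cytokine, chemokine and Toll-like receptor genes had no call among 33 (median -1.48). Il1b, interleukin 1β, was at 1.38 and 11.8 CPM in PTX replicates 1 and 2, and at 1025 and 770 CPM in replicates 3 and 4, within the vehicle range of 576 to 2365 CPM.

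The 29 immediate-early genes had a median of -1.53, and 2 fell, Egr2 and Dusp6, a phosphatase that ends ERK signalling (-1.61 ± 0.40, adjusted p = 0.0408). Fos was at 502, 316, 1656 and 2219 CPM after PTX and 3305 to 4155 CPM in vehicle (-1.66 ± 0.54, adjusted p = 0.106). The groups of Fos did not overlap. Of 31 interferon-induced genes 1 fell, Oas2, a sensor of double-stranded RNA, at 0, 0.569, 1.75 and 4.18 CPM against 9.88, 54.2, 37.5 and 79.9 CPM (-4.80 ± 1.21, adjusted p = 0.0442), and the median was -0.37. Among the widest falls were Epsti1, with 1 count after PTX and 603 in vehicle (661-fold lower, 95% counting interval 118 to 26150, adjusted p = 0.00954), Cldn11, with 1 and 387 counts, Ifi203, with 3 and 570, and P2ry13, a purinergic receptor of myeloid cells, with 2 and 1201. P2ry13 was at 0.256 CPM in vehicle replicate 3 and 17.8 to 74.0 CPM in the others. Cd36, a fatty acid receptor, fell by 3.71 ± 0.85, Lst1, a leukocyte gene, by 3.22 ± 0.79, Gypc, a membrane glycoprotein, by 3.05 ± 0.78, Specc1 by 2.93 ± 0.73, Zfp608 by 2.63 ± 0.64, the telomere protein gene Tinf2 by 2.52 ± 0.62 and the smooth muscle gene Smtn by 2.49 ± 0.63.

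Among the metabolic and remaining stress lists, only the antioxidant list had calls. The 76 respiratory chain and ATP synthase genes had no call in edgeR and a median of 0.36. Of these, 61 were positive and 11 higher without overlap, as were 8.91% of all tested genes. Atp5a1 was at 0.84 ± 0.25 (adjusted p = 0.0800). The 78 cytosolic ribosomal protein genes had no call and a median of -0.18. The 30 genes of the unfolded protein and integrated stress response had no call and a median of -0.12. Among 28 antioxidant genes the median was 0.02, with Gpx3, an extracellular glutathione peroxidase, higher (2.11 ± 0.41) and Prdx6, a peroxiredoxin, lower (-1.32 ± 0.34). None of 21 sterol synthesis genes passed (median 0.56), although 19 were positive and 8 higher without overlap, a state that 8.91% of all tested genes had. Sqle, squalene epoxidase, had a log2 difference of 1.10 ± 0.32 (adjusted p = 0.0695).

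**Figure D4:**
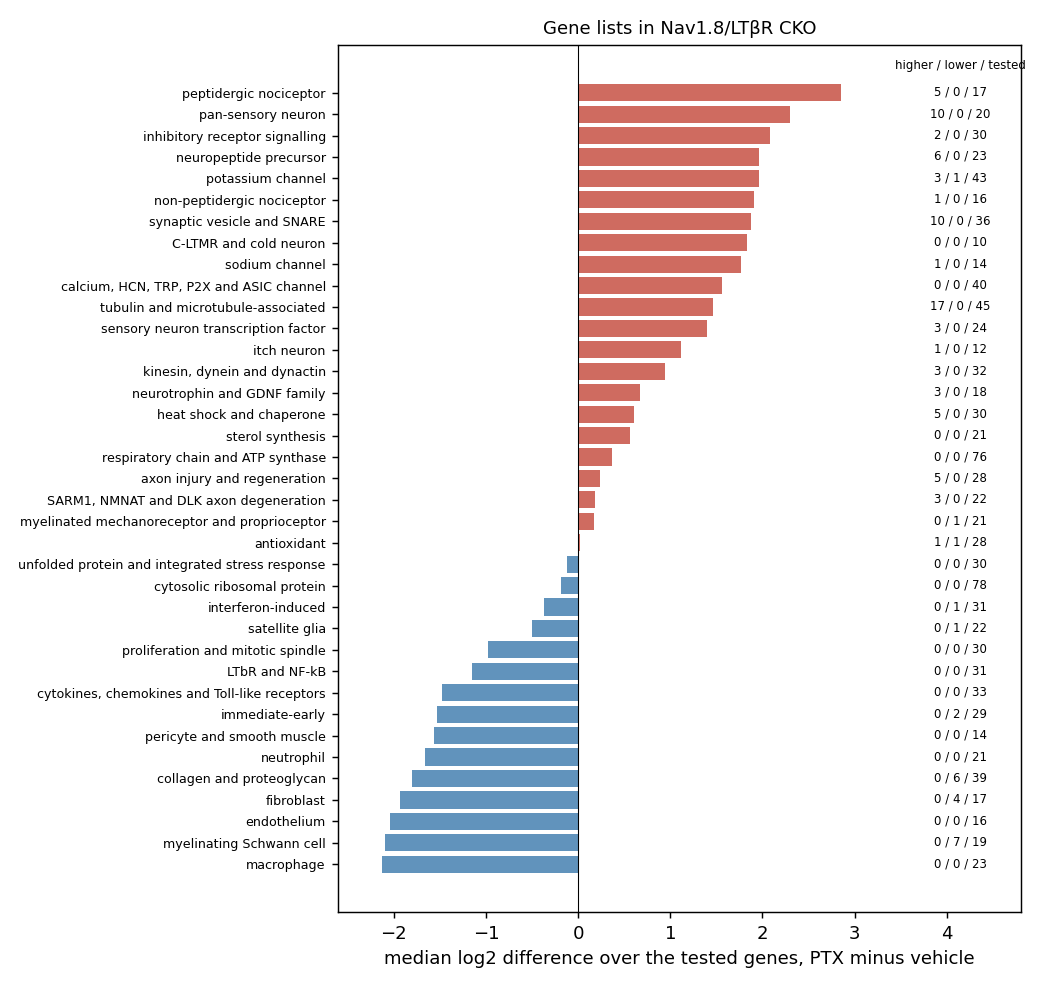
Median log2 difference (PTX minus vehicle) over the tested genes of each list with at least 10 tested genes in CKO, with the numbers higher, lower and tested at the right. Peptidergic nociceptor markers are at 2.85 and macrophage markers at -2.12. The tubulin and microtubule-associated list has 17 of 45 genes higher and the pan-sensory neuron list 10 of 20. Of all tested genes 2.22% were called higher and 0.359% lower.

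The neuron genes were also read relative to the neuron markers of the same library, as log2(CPM + 1) minus the mean of the pan-sensory list. On this scale a gene with equal CPM in both groups comes out lower after PTX, and 48.8% of all genes did not overlap, 48.7% lower and 0.0986% higher. Of the 315 genes that rose, 266 overlapped between the groups, 39 were lower and 10 higher without overlap, and their median difference was -0.22. Slc29a4, Bend6 and Tmem74, a lysosomal protein gene, were among those higher. They were at most at 0.417 CPM in vehicle, where the added 1 CPM sets their level on this scale, so the size of their difference is not given. Calca differed by 0.18 and Tac1 by -0.01, and both overlapped. Ngfr was higher by 0.97 and Ret by 0.75, with overlap. Tubb5 was lower by this measure without overlap (-1.12), and the tubulin list had a median of -1.12, while Tubb3 differed by 0.19. These differences carry no test.

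The same contrast in fl/fl mice had its own vehicle libraries, but both fl/fl groups carried the title dates of the matching CKO groups. Treatment and title date cannot be told apart there either, so shared calls do not separate them. There 454 genes were higher (3.20% of those tested) and 250 lower (1.76%). Of the 315 genes higher in CKO 216 were also called higher in fl/fl, which is 68.6% of the CKO and 47.6% of the fl/fl calls. Of the 51 lower genes 29 were shared, 56.9% of the CKO and 11.6% of the fl/fl calls, and no gene was called in opposite directions. Of the 121 CKO calls absent in fl/fl, 119 had the same sign there, with Epn3 (-0.82) and Lrguk (-0.54) as the exceptions. The share of same signs over all tested genes is not given here, so the 119 are a description. List by list, fl/fl had 13 of 20 pan-sensory neuron markers higher (median 2.28), 17 of 45 tubulin genes higher (1.38), 11 of 19 Schwann cell markers lower (-2.29) and 11 of 22 satellite glia markers lower (-1.79, against 1 and -0.50 in CKO). The difference between genotypes was tested gene by gene as an interaction, and 1 gene passed (0.00704% of those tested; 475 at an unadjusted p under 0.05). That gene was Bend6. Its PTX difference was 8.28 ± 0.92 in CKO and 1.00 ± 0.64 in fl/fl, where its mean was 42.1 CPM after PTX and 21.1 CPM in vehicle, so the interaction was 7.28 ± 1.07 (edgeR, adjusted p = 0.0455). No gene passed the interaction test with RLE or upper-quartile scaling, the replicate block, title date terms or limma-voom (317 to 876 genes at an unadjusted p under 0.05), nor without any single CKO library other than vehicle replicate 4, which gave 4 genes. The vehicle CKO libraries, at 0 to 0.208 CPM, were the group that stood apart. Slc29a4 had an interaction of 5.56 ± 1.05 (adjusted p = 0.426), with 87.1 CPM after PTX and 11.0 CPM in vehicle in fl/fl. No gene of the 40 lists passed the interaction test.

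**Figure D5:**
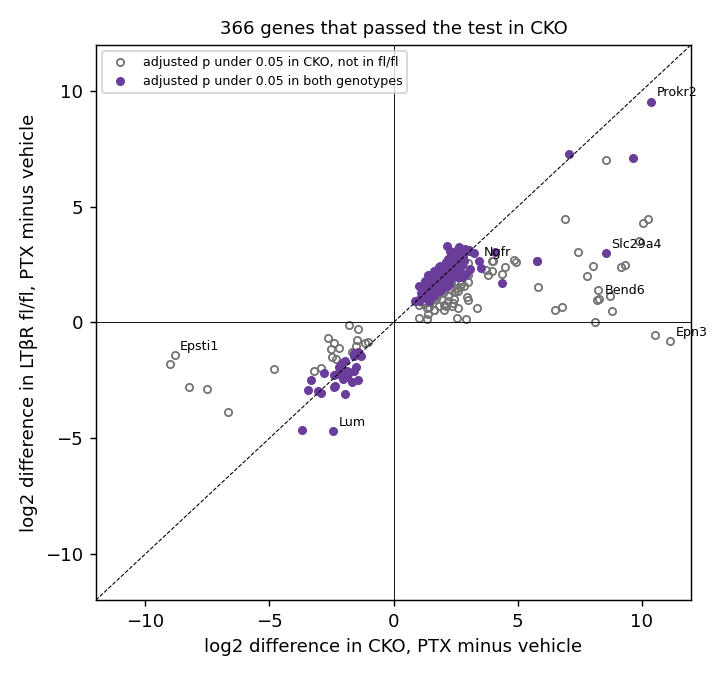
Log2 difference (PTX minus vehicle) in CKO (horizontal) and in fl/fl (vertical) for the 366 genes that passed in CKO; filled points passed in both genotypes and the dashed line marks equal differences. Most points lie in the quadrants of equal sign, and Bend6 and Slc29a4 lie right of the line at 8.28 and 8.55 in CKO against 1.00 and 2.99 in fl/fl.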

How the data were processed

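Raw read counts per gene were deposited by the authors, 1 file per library. Per the submitters' processing notes, reads were handled with bcl2fastq, TopHat2 and HTSeq on mm9; versions are not given in the sources used here. Per the labels' protocols, libraries were stranded, oligo-dT selected and read as single ends; whether counting used strand is not given in the sources used here, so antisense partners cannot be told apart. The 5 summary lines were removed: 32.9% to 41.4% of the listed reads fell in genes, 39.5% to 44.2% were not unique. The whole table was filtered with filterByExpr, TMM scaling was applied, and edgeR 4.0.16 gave the tests (R 4.3.3; robust quasi-likelihood, 4 group means over 16 libraries, 12 residual degrees of freedom); 14200 of 22609 genes were tested and adjusted by Benjamini-Hochberg. CPM values use the scaled library sizes. Differences are log2 values with SE. Counting intervals are exact and cover counting error only. All replicate pairs differed by more than sampling noise. The fit was tested on simulated data. Gene lists (40; 1147 of 1152 entries matched) and members were chosen with earlier results of these data known. Named genes: Ltbr and Scn10a, up to 15 per direction by size (at least 5 CPM in the higher group, no overlap), and per list up to 5 called genes by p or the 2 most abundant; list genes named beyond this rule (Gap43, Tac1, P2rx3, Mrgprd, Atf3, Fos, Ltb, Tnfsf14, Nfkb2, Relb) were chosen for their role after their values were seen. Some named-rule genes are not reported here. Alternatives used limma 3.58.1 and DESeq2 1.42.0.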

Additional observations from a re-analysis of the deposited data

Results flagged for a closer look

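Bend6 was flagged because its PTX difference in CKO and in fl/fl differed by 7.28 on the log2 scale (edgeR interaction, adjusted p = 0.0455; groups of 4 libraries). With RLE or upper-quartile scaling, the replicate block, title date terms or limma-voom, 0 genes passed the interaction test (317 to 876 at an unadjusted p under 0.05). DESeq2 gave 50 genes and the fit without the later vehicle date 9. In single libraries, 13 of at most 212 group checks had 1 library set apart from the other 3 relative to the range of its group on the log2(CPM + 1) scale, where chance flags about 1 in 20. Groups with the same value in every library, such as those at 0, were skipped but are counted in the 212. For Odz1, Lrrc24, Kcnma1, Epsti1 and Cldn11 this is 1 or 2 counts beside 3 libraries at 0, which the rule always flags. In vehicle these were Odz1 in replicate 1 (0.112 CPM, the others at 0), Lrrc24 in replicate 3 (0.128 CPM, the others at 0), Kcnma1 in replicate 4 (0.208 CPM, the others at 0), Adcyap1 in replicate 3 (172 CPM, high), Bdnf in replicate 3 (0.128 CPM, low), Sox11 in replicate 3 (1.15 CPM, high), P2rx3 in replicate 2 (0 CPM, low) and Gap43 in replicate 1 (26.3 CPM, low). After PTX these were Epsti1 and Cldn11 in replicate 2 (0.0949 CPM each, the others at 0), Smtn in replicate 2 (6.93 CPM, low), Ogn in replicate 2 (16.2 CPM, low) and Htr1a in replicate 4 (0 CPM, low).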

How the results depend on the processing

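The count of genes that passed moved widely with the processing, while all 366 kept their direction in every alternative that tested them. Where libraries were left out, that direction was largely fixed in advance for the 354 genes without overlap. Genes higher and lower numbered 108 and 18 with the replicate number as a block (interaction 0), where same-numbered libraries did not deviate together (correlations -0.01 to 0.11). They numbered 855 and 943 with title date terms (interaction 0), 1259 and 1436 in limma-voom with quality weights (0), 888 and 453 in DESeq2 (interaction 50), 150 and 9 in the 8 CKO libraries alone, 0 and 0 without the earlier PTX date (0), 815 and 1262 without the later PTX date, 262 and 13 without the earlier vehicle date (0) and 317 and 19 without the later vehicle date (interaction 9). The fits without a date left out its libraries of both genotypes. The interaction count was also 0 with RLE and with upper-quartile scaling, and RLE gave 244 higher and 52 lower. Leaving out 1 library at a time gave 27 to 395 higher, 3 to 154 lower and 0 to 4 with an interaction. The share of calls that were higher was 47.6% with date terms, 46.7% in limma-voom, 66.2% in DESeq2 and 39.2% without the later PTX date, against 86.1%. It was 82.4% with RLE, 84.5% with upper-quartile scaling, 85.7% with the replicate block and 94.3% in the 8 CKO libraries alone. With 1 library left out at a time it was 71.95% to 91.18%. Of 83 called genes named here, 10 (Slc29a4, Bend6, Prokr2, Ngfr, Ret, Vamp2, Dctn1, Mtap1a, Mbp, Epsti1) lost the call only without the earlier PTX date; the other 73 lost it in more alternatives. Mki67 turned to 0.43 without the earlier PTX date and 0.57 without the later vehicle date, Top2a to 0.33 without the earlier PTX date, and Ltb to 0.19 and 0.42. Cause was not tested. Genes at a few counts give wide intervals at this depth.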
